A study of Mus musculus with 8 samples.

Results

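The 10 genes described here act in inflammasomes and in lytic cell death: Nlrp3, Aim2, Pycard, Casp1, Casp4, Gsdmd, Gsdme, Zbp1, Ripk3 and Mlkl. They were chosen by symbol among the 55359 genes of the deposited table, and all 10 were found by their Ensembl identifiers and passed the filter on low values. The samples are total RNA of bone-marrow-derived Mϕ (BMDMs) of adult male and female wildtype C57BL/6 mice, over 8 weeks of age per the study's methods, grown with 20 ng/mL M-CSF and 20 ng/mL GM-CSF for 6 days per the methods and 7 days per the labels. Naïve Mϕ without stimulation form the group Ctrl, and naïve Mϕ that received 100 ng/mL LPS with 100 U/mL IFNγ for 6 h form the group LPS. Efferocytic Mϕ (Eff) had spent 16 h with apoptotic fibroblasts at 5 per Mϕ, and LPSEff are efferocytic Mϕ that then received the same LPS/IFNγ. The prey were NIH-3T3 CA cells, a clone of a mouse fibroblast line with a dimerizable human caspase-8 domain, in which 10 nM dimerizer starts apoptosis and which received it for 6 h before co-culture. The dimerizer stayed on during the 16 h of co-culture, so that the efferocytic Mϕ were exposed to it as well. Whether Ctrl and LPS received the dimerizer is not given in the sources used here. CD45+ cells were taken with beads before RNA isolation, and each group has n = 2 samples, numbered 1 and 2. The labels do not say that these came from separate mice or cultures, so that p-values measure the spread between these samples, which may be technical.

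Depth ranged from 3481288 to 12020918 reads per sample, and the members had between 29 (Gsdme) and 11180 (Nlrp3) reads in a sample, all above the 3 reads taken as the limit of detection. A depth of 3 reads equals 1.73 to 5.71 normalized counts, a limit that covers counting error only. All 8 Mϕ markers of a list (among them Adgre1, Cd68 and Csf1r) had a mean of at least 10 normalized counts in every group, while 0 of 5 lymphocyte markers did (1 of them was at 0 in Ctrl). The summed level of 19 fibroblast markers was 646 and 658 normalized counts in Ctrl and 2579 and 4963 in Eff, against 4765 and 2467 in LPS and 8272 and 7248 in LPSEff, with none of them at 0 in any group. The sums in LPS came mostly from 1 marker, Lox, which had 3620 and 1335 normalized counts there. Lox had 368 and 165 in Ctrl, 131 and 425 in Eff, and 1366 and 1084 in LPSEff. Of 18 fibroblast markers tested, 7 passed as higher in Eff than in Ctrl and 7 in LPSEff than in LPS. With LPS/IFNγ, 4 passed as higher in LPS than in Ctrl, where no prey was added, and 2 in LPSEff than in Eff. Of all tested genes, 0.215%, 0.730%, 12.4% and 10.7% passed as higher in these comparisons, in that order. The sums of 7 neutrophil markers ran from 643 to 1399 normalized counts without and from 1534 to 2176 with LPS/IFNγ. Most of each sum came from S100a8 and S100a9, with 308 and 520 normalized counts in Ctrl sample 1 and 570 and 705 in LPS sample 1. Ly6g and Elane did not pass the filter. The sums of 5 dendritic cell markers ran from 161 to 453 without and from 448 to 1617 with LPS/IFNγ. The part of these cells in the values below was not tested, and since the prey are mouse cells too, their transcripts of the 10 genes cannot be told apart from those of the Mϕ. In bulk RNA, fewer cells of a type and less RNA per cell cannot be told apart.

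An inflammasome is a protein platform that a Mϕ builds in its cytosol when a sensor such as NLRP3 or AIM2 detects a danger signal. The sensor recruits the adaptor ASC, the product of Pycard, which gathers and activates caspase-1, and caspase-1 cuts the precursors of the cytokines IL-1β and IL-18 as well as gasdermin D, whose freed part opens pores in the plasma membrane (pyroptosis). Caspase-4, known in mice also under another number, binds cytosolic LPS and cuts gasdermin D without that platform. Necroptosis is a separate lytic death, in which ZBP1 or death receptors engage the kinase RIPK3, and RIPK3 phosphorylates the membrane-breaking protein MLKL. Transcription of the sensors is known as the priming step, and several of these genes are textbook targets of NF-κB or of interferon-activated factors.

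Since all samples were measured after an interferon and LPS stimulus or without it, the 300 bases before the canonical start of each member were searched on both strands for 3 simple motifs. These were an ISRE-type motif, as bound by interferon-activated factors (GAAA, any 2 bases, then GAAA), a GAS-type motif, as bound by STAT dimers (TTC, any 3 bases, then GAA), and a κB-type motif, as bound by NF-κB (GGG, any 3 bases, then TTCC). Of 12498 promoters of tested protein-coding genes, 3.82% held the ISRE-type, 8.05% the GAS-type and 5.96% the κB-type letters. Of the 10 members, 2 held the ISRE-type, 1 the GAS-type and 1 the κB-type letters. A match was found for 3 members, namely Zbp1, Mlkl and Casp4, whose upstream sequences are printed here. They are from GRCm39, read 5′ to 3′ on the gene's strand, with matches in capitals. Nlrp3, which rose more than Mlkl with LPS/IFNγ below, and Casp1 and Gsdmd, which also rose, held no match. Whether the motifs bear on the responses was not tested. Zbp1 (chr2:173060725-173061024, minus strand) held 4 ISRE-type matches, which overlap in 2 pairs (from bases -91 and -85 and from bases -43 and -37 before the start), and 2 GAS-type matches (from bases -63 and -30, the latter overlapping an ISRE-type match), Mlkl (chr8:112064869-112065168, minus strand) held 3 overlapping ISRE-type matches (from base -262 on), and Casp4 (chr9:5308543-5308842, plus strand) held 2 κB-type matches (from bases -87 and -33). The other 7 members held none of these letters in the window, which says nothing about the binding of the factors.
Zbp1: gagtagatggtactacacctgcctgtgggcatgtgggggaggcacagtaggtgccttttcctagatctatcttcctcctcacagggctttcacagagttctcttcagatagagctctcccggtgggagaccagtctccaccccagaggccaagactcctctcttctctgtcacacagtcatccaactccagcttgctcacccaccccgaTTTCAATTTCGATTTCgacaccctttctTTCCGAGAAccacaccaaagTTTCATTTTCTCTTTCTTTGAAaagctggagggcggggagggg
Mlkl: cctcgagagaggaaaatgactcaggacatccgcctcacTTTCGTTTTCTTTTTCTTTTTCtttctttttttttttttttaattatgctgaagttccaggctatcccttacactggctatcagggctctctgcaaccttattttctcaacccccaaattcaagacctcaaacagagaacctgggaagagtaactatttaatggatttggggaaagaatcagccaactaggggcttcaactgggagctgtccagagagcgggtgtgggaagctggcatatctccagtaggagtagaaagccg
Casp4: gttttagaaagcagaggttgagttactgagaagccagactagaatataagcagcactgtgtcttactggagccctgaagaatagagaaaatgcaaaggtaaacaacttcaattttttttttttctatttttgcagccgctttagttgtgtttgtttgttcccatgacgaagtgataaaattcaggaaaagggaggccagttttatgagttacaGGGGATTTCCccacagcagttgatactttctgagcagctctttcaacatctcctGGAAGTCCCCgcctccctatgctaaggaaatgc

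The main comparison asked how LPS/IFNγ changed these genes in naïve Mϕ (LPS against Ctrl) and in efferocytic Mϕ (LPSEff against Eff). In naïve Mϕ, 8 of the 10 members passed the test, with Zbp1, Casp4, Nlrp3, Mlkl, Casp1 and Gsdmd higher and Pycard and Gsdme lower, where 24.0% of all tested genes passed (12.4% higher, 11.6% lower). The same 6 genes were higher and the same 2 lower in efferocytic Mϕ, where 19.7% of all tested genes passed (10.7% higher, 8.95% lower). Responses spanned from about 19.5-fold higher (Zbp1) to 3.16-fold lower (Gsdme) in naïve Mϕ. Aim2 and Ripk3 did not pass in either. The test was limma on log2(normalized count + 1) with Benjamini-Hochberg adjustment over 16309 genes, and fold changes are on that scale. The stimulated and unstimulated samples did not overlap for any of the 10 members in naïve or in efferocytic Mϕ, with 7 higher and 3 lower in each. Of all tested genes, 59.3% were apart in this way in naïve Mϕ (28.4% higher, 30.9% lower) and 59.9% in efferocytic Mϕ (29.5% higher, 30.4% lower). The median log2 fold change of the 10 was 1.48 in naïve and 1.76 in efferocytic Mϕ, beside -0.01 and 0.01 over all tested genes.

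**Figure D1:**
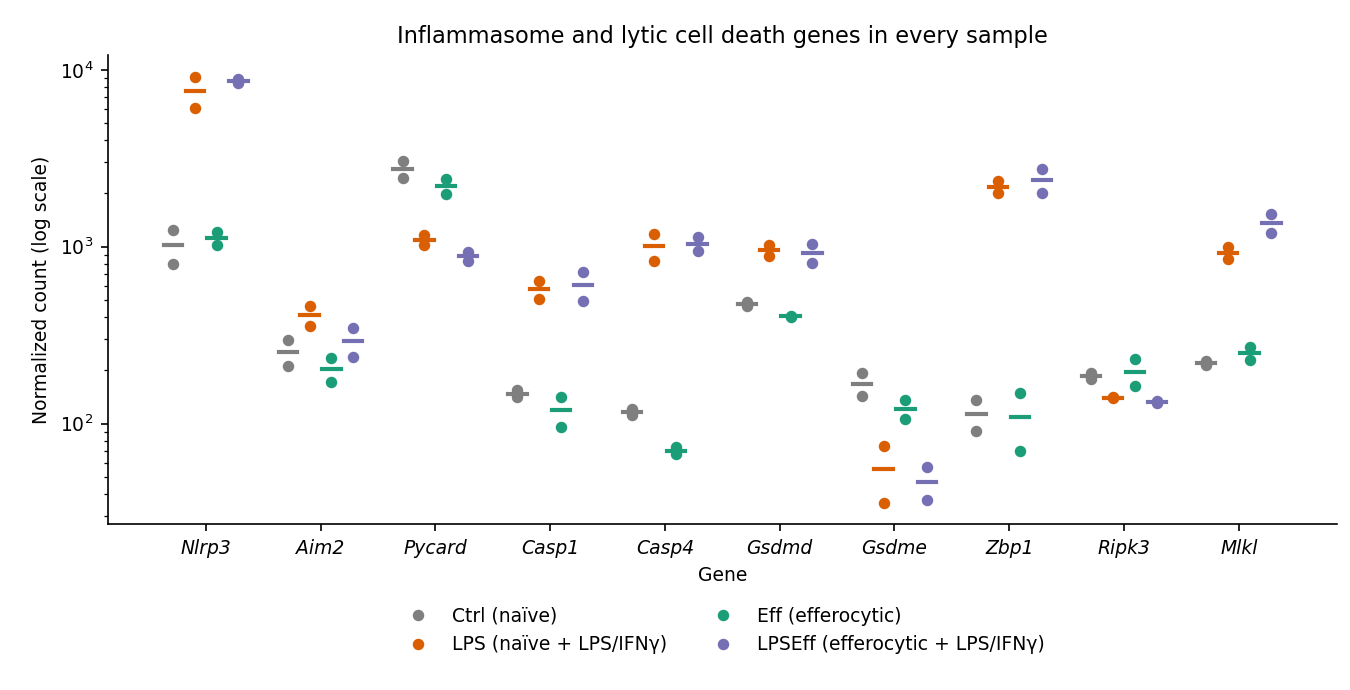
Normalized counts (log axis) of the 10 genes in each of the 8 samples, with points for samples, short lines for the means of 2 samples and colours for the groups. Nlrp3, Casp1, Casp4, Gsdmd, Zbp1 and Mlkl sit higher, and Pycard and Gsdme lower, in both stimulated groups than in both unstimulated ones.

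Nlrp3 (chromosome 11, 59432394 to 59457782, plus strand, GRCm39), the sensor of ion fluxes and membrane damage, reached 796 and 1239 normalized counts in the Ctrl samples and 1205 and 1028 in the Eff samples, against 9164 and 6047 in the LPS samples and 8851 and 8382 in the LPSEff samples. It rose 7.49-fold in naïve Mϕ (log2 fold change 2.91 ± 0.28 SE, limma adjusted p = 0.000297) and 7.73-fold in efferocytic Mϕ (2.95 ± 0.28, limma adjusted p = 0.000264). The 4 stimulated samples lay far above the 4 unstimulated ones, and the samples of LPS and LPSEff overlapped.

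Aim2 (chromosome 1, 173178445 to 173293930, plus strand), the sensor of cytosolic DNA, moved little beside Nlrp3. Its normalized counts were 211 and 296 in Ctrl and 172 and 234 in Eff, against 358 and 465 in LPS and 239 and 348 in LPSEff. The log2 fold change was 0.71 ± 0.29 SE in naïve Mϕ (limma adjusted p = 0.115) and 0.52 ± 0.29 in efferocytic Mϕ (limma adjusted p = 0.253), and neither passed. With the replicate number as a block, which no source gives as a shared preparation, both passed (limma adjusted p = 0.00308 and 0.0174). The lowest LPSEff sample lay only just above the highest Eff sample.

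Pycard (chromosome 7, 127588558 to 127593039, minus strand), the gene of the adaptor ASC that links sensors to caspase-1, went the other way. It was at 3033 and 2438 normalized counts in Ctrl and 2408 and 1979.6 in Eff, against 1018 and 1164 in LPS and 932 and 835 in LPSEff. The gene fell by 1.32 on the log2 scale in naïve Mϕ (± 0.20 SE, limma adjusted p = 0.00236) and by 1.31 in efferocytic Mϕ (± 0.20, limma adjusted p = 0.00296). All 4 groups were apart, in the order Ctrl, Eff, LPS and LPSEff from high to low, although the steps from Ctrl to Eff and from LPS to LPSEff did not pass the test. Pycard shares 485 exon bases (11.5% of its exon length) with Gm45205, an unconfirmed gene model on the opposite strand, which stood at a steady 0.490 to 0.522 of Pycard's value in every sample and was also lower with LPS/IFNγ (log2 fold changes -1.29 and -1.32). Reads of such a pair can be told apart only by strand, and whether the strand setting of the counting matched the libraries was not tested.

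Of the inflammatory caspases, Casp1 (chromosome 9, 5298508 to 5307290, plus strand), the protease at the centre of the inflammasome, was at 141 and 154 normalized counts in Ctrl and 95.5 and 142 in Eff, against 509.6 and 642 in LPS and 492 and 723 in LPSEff. It rose 3.86-fold in naïve Mϕ (log2 fold change 1.95 ± 0.27 SE, limma adjusted p = 0.00180) and 5.09-fold in efferocytic Mϕ (2.35 ± 0.27, limma adjusted p = 0.000868). The stimulated groups overlapped each other, as did the unstimulated ones.

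Casp4 (chromosome 9, 5308828 to 5336783, plus strand), the caspase of the non-canonical inflammasome and a close neighbour of Casp1 on the chromosome, held 112 and 120.3 normalized counts in Ctrl and 67.5 and 73.4 in Eff, against 836 and 1175 in LPS and 1135 and 948 in LPSEff. Its rise was 8.46-fold in naïve Mϕ (log2 fold change 3.08 ± 0.22 SE, limma adjusted p = 8.33e-05) and 14.5-fold in efferocytic Mϕ (3.86 ± 0.22, limma adjusted p = 2.99e-05). The stimulated groups overlapped, whereas both Eff samples lay below both Ctrl samples, so that the larger fold change of efferocytic Mϕ came with a lower unstimulated level. This gene has 2 κB-type matches in the sequence printed above, whose part in the rise was not tested.

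Among the gasdermins, which form the pores, Gsdmd (chromosome 15, 75733974 to 75739257, plus strand) was the more abundant. It was at 461 and 486 normalized counts in Ctrl and 402 and 407 in Eff, against 1024 and 889.6 in LPS and 1039.5 and 806 in LPSEff. Gsdmd rose 2.02-fold in naïve Mϕ (log2 fold change 1.01 ± 0.19 SE, limma adjusted p = 0.00664) and 2.26-fold in efferocytic Mϕ (1.18 ± 0.19, limma adjusted p = 0.00393), the smallest of the 6 rises.

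Gsdme (chromosome 6, 50165868 to 50240842, minus strand), another pore former of the gasdermin family, was low throughout. Its normalized counts were 192 and 143 in Ctrl and 106 and 136 in Eff, against 75.0 and 35.5 in LPS and 57.0 and 36.8 in LPSEff. The gene fell by 1.66 on the log2 scale in naïve Mϕ (± 0.40 SE, limma adjusted p = 0.0191) and by 1.37 in efferocytic Mϕ (± 0.40, limma adjusted p = 0.0453). These calls were the least stable of the 10 genes. In naïve Mϕ the limma adjusted p became 0.116 without Ctrl replicate 1, 0.0553 without Ctrl replicate 2 and 0.0824 without LPS replicate 2, where 16 of 19 alternatives kept the call. In efferocytic Mϕ 10 of 19 kept it, and the limma adjusted p became 0.0677 without Ctrl replicate 1, 0.0680 without Ctrl replicate 2, 0.106 without Eff replicate 1, 0.201 without Eff replicate 2, 0.0720 without LPSEff replicate 1 and 0.202 without LPSEff replicate 2. Over the alternatives run, the log2 fold change lay between -2.19 and -1.13 in naïve and between -1.81 and -1.06 in efferocytic Mϕ. Gsdme also shares 3141 exon bases (24% of its exon length) with Pals2 on the opposite strand, which was on average 5.88 times as high and likewise lower with LPS/IFNγ (log2 fold changes -1.33 and -0.98, limma adjusted p = 0.00402 and 0.0174).

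Of the necroptosis genes, Zbp1 (chromosome 2, 173033815 to 173060724, minus strand), the sensor of Z-form nucleic acids, had the strongest response of all 10 members. It was at 135 and 90.8 normalized counts in Ctrl and 149 and 69.9 in Eff, against 2015 and 2354 in LPS and 2751 and 2010.3 in LPSEff. The rise was 19.5-fold in naïve Mϕ (log2 fold change 4.28 ± 0.36 SE, limma adjusted p = 0.000179) and 22.8-fold in efferocytic Mϕ (4.51 ± 0.36, limma adjusted p = 0.000128). By size of the rise, it stood at place 142 of 16309 genes in naïve and at place 127 in efferocytic Mϕ. Its upstream sequence holds the most motif matches of the 10 members, and their part in the rise was not tested.

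Ripk3 (chromosome 14, 56022452 to 56026324, minus strand), the kinase that Zbp1's product engages, had 194 and 179 normalized counts in Ctrl and 231 and 162 in Eff, against 141 and 139 in LPS and 131 and 135 in LPSEff. The log2 fold change was -0.41 ± 0.23 SE in naïve Mϕ (limma adjusted p = 0.245) and -0.54 ± 0.23 in efferocytic Mϕ (limma adjusted p = 0.143). Every stimulated sample lay below every unstimulated one, yet neither comparison passed. When samples were rescaled to equal totals, Ripk3 passed as lower in both (log2 fold changes -0.81 and -0.99, limma adjusted p = 0.0304 and 0.0147), and with the replicate number as a block it passed in efferocytic Mϕ (limma adjusted p = 0.0461).

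Mlkl (chromosome 8, 112036296 to 112065168, minus strand), the executor that RIPK3 phosphorylates, was at 225 and 216 normalized counts in Ctrl and 228 and 272 in Eff, against 996 and 847 in LPS and 1534 and 1193 in LPSEff. It rose 4.16-fold in naïve Mϕ (log2 fold change 2.06 ± 0.20 SE, limma adjusted p = 0.000362) and 5.41-fold in efferocytic Mϕ (2.44 ± 0.20, limma adjusted p = 0.000150). The groups were apart in the order LPSEff, LPS, Eff and Ctrl from high to low. Within the necroptosis pathway, the sensor and the executor passed as higher, and the kinase between them did not pass.

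**Figure D2:**
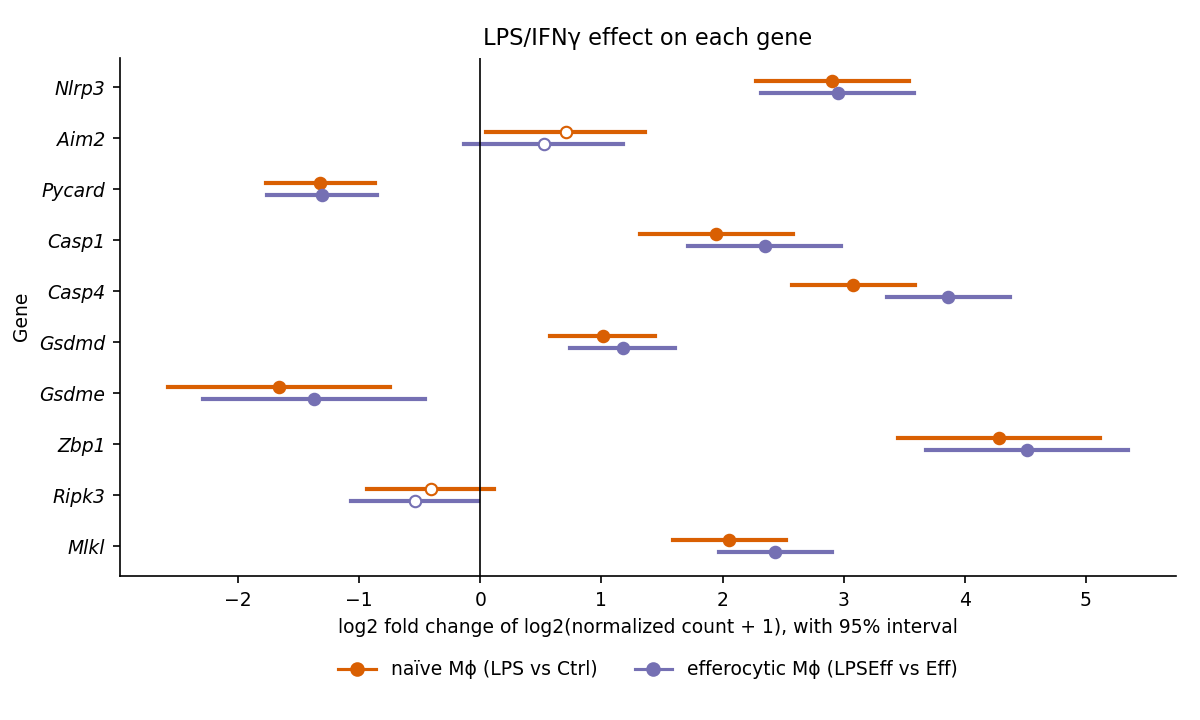
log2 fold change with LPS/IFNγ of each gene in naïve and in efferocytic Mϕ, with lines for 95% intervals, filled points for genes that passed at a limma adjusted p under 0.05 and open points for the others (n = 2 samples per group). The largest values are those of Zbp1 (4.28 and 4.51) and the lowest that of Gsdme (-1.66) in naïve Mϕ.

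The scaling bears on these sizes. With samples rescaled to equal totals, the median log2 fold change of all tested genes became -0.40 in naïve and -0.44 in efferocytic Mϕ, and 24.8% and 21.8% of the called genes were higher, beside 51.5% and 54.6% in the values as deposited. All 8 called members kept their direction and their call under this scaling, with Gsdmd nearest to the limit (log2 fold change 0.61, limma adjusted p = 0.0494, in naïve Mϕ).

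Around these members, 62 other genes of the same pathways were listed, of which 51 passed the filter. In naïve Mϕ, 19 were higher and 7 lower, and in efferocytic Mϕ 20 were higher and 3 lower, which is 51.0% and 45.1% of those tested. Of all tested genes, 24.0% passed in naïve Mϕ (12.4% higher, 11.6% lower) and 19.7% in efferocytic Mϕ (10.7% higher, 8.95% lower). The counts of each list below are to be read beside these shares. The count of 26 in naïve Mϕ rests in part on single samples, being 17 without Ctrl replicate 1, 13 without Ctrl replicate 2 and 15 without LPS replicate 1, and the 23 in efferocytic Mϕ became 14 without Eff replicate 1. None of the 7 other gasdermins of the list passed the filter (at most 4 reads in a sample, and Gsdmc2 at 0 in all 8), nor did Naip1, Nlrp6, Nlrp12 and Casp12.

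Of the other inflammasome sensors and regulators, 2 of 12 tested were higher and 3 lower in naïve Mϕ, and 3 were higher and 1 lower in efferocytic Mϕ. Mefv, the gene of the sensor pyrin, had 3.81 and 5.20 normalized counts in Ctrl and 1.75 and 4.94 in Eff, against 71.1 and 148 in LPS and 46.7 and 67.3 in LPSEff. It passed as higher in both (limma adjusted p = 0.00129 and 0.00247), but the first sample of Ctrl and of Eff held 2 reads each, below the 3-read limit, so that no fold change is given. Naip2, whose product detects bacterial secretion systems and which has near-identical copies that could split its reads, rose by 0.74 and 1.13 on the log2 scale. Nlrc4, its partner, passed in efferocytic Mϕ (0.89 ± 0.21 SE, limma adjusted p = 0.0211) and had 0.53 (limma adjusted p = 0.116) in naïve Mϕ. Nlrc4 shares 17.9% of its exon length with Slc30a6 on the opposite strand, which was on average at 0.844 of its level. Txnip, a redox regulator that binds NLRP3, fell by 2.01 (± 0.46 SE, limma adjusted p = 0.0161) and by 2.27 (± 0.46, limma adjusted p = 0.0110). It shares 928 exon bases with the antisense gene Gm15441, which stood at 0.263 to 0.299 of its value. Nlrp1b, which has close paralogs, and P2rx7, the ATP-gated channel that triggers NLRP3, fell by 1.75 and 1.17 in naïve Mϕ (limma adjusted p = 0.0333 and 0.0130), and their values in efferocytic Mϕ were -1.25 and -0.75 (limma adjusted p = 0.114 and 0.0770).

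Downstream, 4 of 9 genes of cytokine substrates and of membrane rupture and repair were higher in naïve and 5 in efferocytic Mϕ, and 0 were lower. Il1b was at 109 and 74.0 normalized counts in Ctrl and 129.7 and 107 in Eff, against 49516 and 30115 in LPS and 37496 and 35413 in LPSEff. Its log2 fold changes of 8.73 ± 0.28 SE and 8.26 ± 0.28 (limma adjusted p = 3.44e-06 and 3.62e-06) were far above those of all members. Il18 was low, at 24.8 and 30.7 normalized counts in Ctrl and 71.1 and 47.7 in LPS, and passed in efferocytic Mϕ (1.22 ± 0.35 SE, limma adjusted p = 0.0442) but not in naïve Mϕ (1.05, limma adjusted p = 0.0648). Il18bp, the decoy that binds IL-18, rose by 3.13 and 3.53 on the log2 scale (± 0.25 SE, limma adjusted p = 0.000144 and 7.47e-05). Il18bp shares 8.98% of its exon length with Numa1 on the opposite strand, which was on average 6.71 times as high. Ninj1, which ruptures the plasma membrane at the end of lytic death, went from 592 and 415 normalized counts in Ctrl to 1738 and 1211.5 in LPS, and from 820.2 and 611 in Eff to 4082 and 1892 in LPSEff. Its log2 fold changes were 1.55 ± 0.38 SE and 1.97 ± 0.38 (limma adjusted p = 0.0203 and 0.00844).

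Of 17 genes of necroptosis and death receptor signalling, 10 were higher and 1 lower in naïve Mϕ, and 8 higher and 1 lower in efferocytic Mϕ. The largest rises were those of Tnf (log2 fold changes 3.82 and 2.98, ± 0.25 SE), of Tnfaip3, a ubiquitin editor that restrains TNF signalling (3.77 and 3.70, ± 0.29), of Cflar, the caspase-8 inhibitor (2.76 ± 0.21 in naïve Mϕ) and, in efferocytic Mϕ, of the receptor gene Tlr3 (3.02 ± 0.26), with limma adjusted p values from 6.00e-05 to 0.000175. Casp8, whose product cuts RIPK1 and RIPK3, rose by 0.88 in naïve Mϕ (± 0.22 SE, limma adjusted p = 0.0216) and had 0.60 in efferocytic Mϕ (limma adjusted p = 0.0911). Ripk1, the kinase upstream of RIPK3, was flat, with log2 fold changes of 0.01 ± 0.18 SE (95% interval not above 0.43) and 0.05 ± 0.18. Tlr4, the LPS receptor, fell by 0.70 in naïve Mϕ (limma adjusted p = 0.0445), and Fadd, the adaptor of caspase-8, fell by 1.15 in efferocytic Mϕ (limma adjusted p = 0.00899).

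The apoptotic caspases and their regulators moved both ways, with 3 of 13 higher and 3 lower in naïve Mϕ, and 4 higher and 1 lower in efferocytic Mϕ. Apaf1, the scaffold of the apoptosome, rose by 1.15 in naïve Mϕ (limma adjusted p = 0.00260), and the survival gene Mcl1 rose by 0.87 and 0.98 (limma adjusted p = 0.0468 and 0.0347). Bcl2, another survival gene, fell by 1.75 and by 2.38 (± 0.41 SE, limma adjusted p = 0.0164 and 0.00518). Casp9 and Bid, both of the mitochondrial route, fell by 0.97 and 0.83 in naïve Mϕ (limma adjusted p = 0.0230 and 0.0102), and Bid shares 31.2% of its exon length with Bcl2l13 on the opposite strand.

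**Figure D3:**
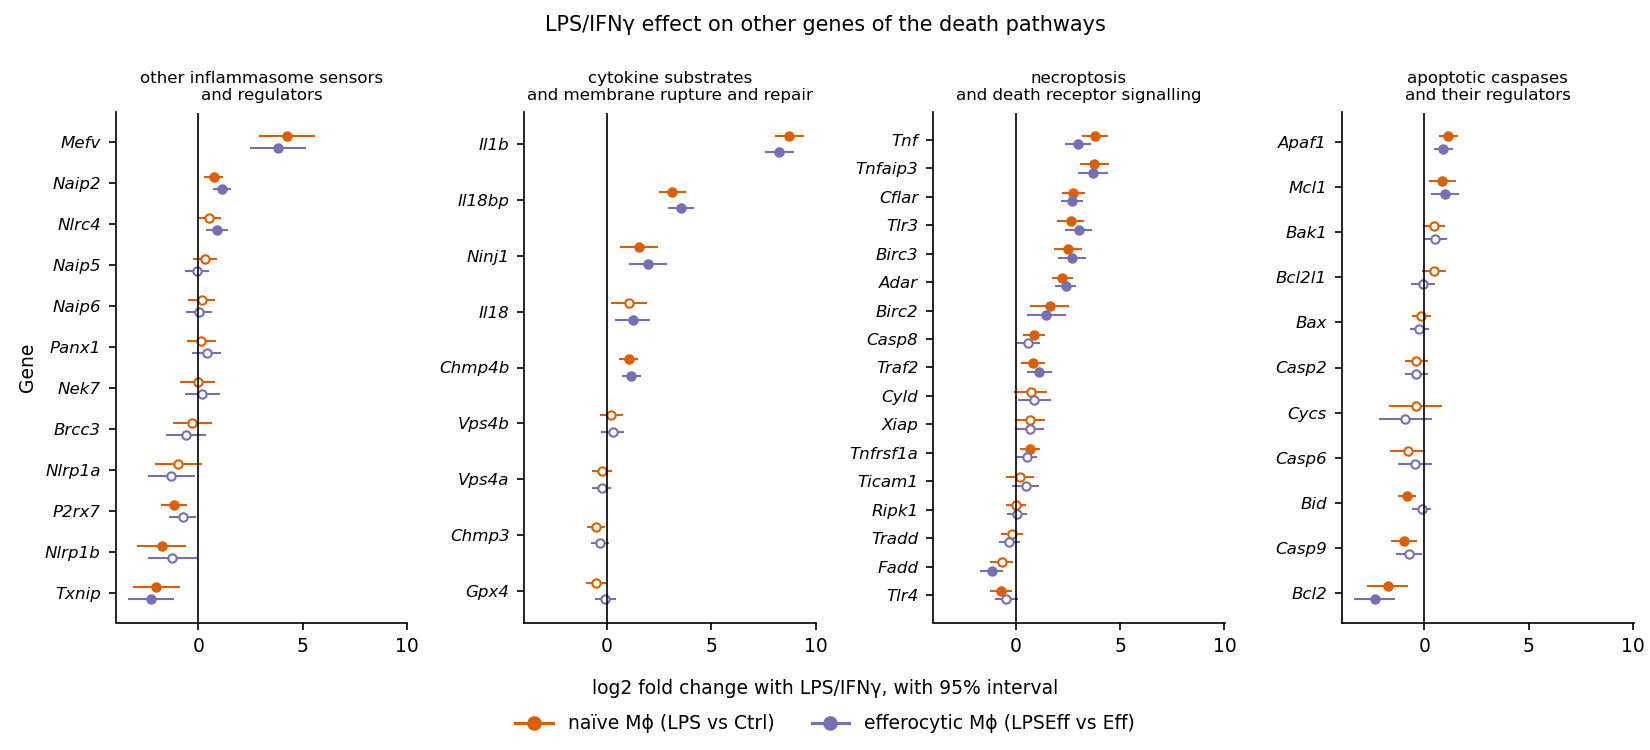
log2 fold change with LPS/IFNγ of tested genes of the other pathway lists, in naïve and in efferocytic Mϕ, with lines for 95% intervals and filled points for genes that passed at a limma adjusted p under 0.05 (n = 2 samples per group). Il1b stands farthest to the right (8.73 and 8.26), and Bcl2 and Txnip are among the lowest.

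The next question was whether prior efferocytosis changed the same genes, without stimulation (Eff against Ctrl) or with it (LPSEff against LPS). No member passed in either comparison, where 0.251% of all tested genes passed in limma without stimulation (0.215% higher, 0.0368% lower) and 0.773% with it (0.730% higher, 0.0429% lower). Before adjustment, 1 member had a limma p under 0.05 in each, Casp4 without and Mlkl with stimulation. Of all 16309 tested genes, 1000 had such a p without and 1679 with stimulation. For the members, edgeR and DESeq2 also called 0. The differences of the 10 members ranged from -0.72 to 0.18 on the log2 scale without and from -0.50 to 0.56 with stimulation. These comparisons share their samples with those above (each group serves in more than 1 comparison). The fibroblast marker sums given above were higher in Eff than in Ctrl and in LPSEff than in LPS.

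Casp4 had the largest difference without stimulation. Both Eff samples (67.5 and 73.4 normalized counts) lay below both Ctrl samples (112 and 120.3), with a log2 difference of -0.72 (95% interval -1.22 to -0.21), an unadjusted limma p of 0.0115 and an adjusted p of 0.470. With stimulation the groups overlapped, and the difference was 0.07 (95% interval -0.44 to 0.57). Mlkl had the largest difference with stimulation, 1534 and 1193 normalized counts in LPSEff against 996 and 847 in LPS. Its log2 difference was 0.56 (95% interval 0.09 to 1.02), with an unadjusted limma p of 0.0243 and an adjusted p of 0.376. Without stimulation it was 0.18 (95% interval -0.29 to 0.64), although both Eff samples lay above both Ctrl samples.

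For the sensors and the adaptor, the intervals covered 0 throughout. Nlrp3 differed by 0.16 on the log2 scale without (95% interval -0.47 to 0.80) and by 0.21 with stimulation (-0.42 to 0.84). Aim2 had -0.32 (-0.97 to 0.34) and -0.50 (-1.16 to 0.16), and both its LPSEff samples lay below both LPS samples. Pycard had -0.32 (-0.77 to 0.14) and -0.30 (-0.75 to 0.15), with lower efferocytic samples in both comparisons. These intervals allow differences in either direction, so that they do not show equal levels.

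The intervals of the remaining members covered 0 as well. For Casp1 the log2 difference was -0.34 without (95% interval -0.97 to 0.29) and 0.06 with stimulation (-0.57 to 0.69), and for Gsdmd it was -0.22 (-0.66 to 0.21) and -0.06 (-0.50 to 0.37). Gsdme had the widest intervals, at -0.46 (-1.38 to 0.46) and -0.17 (-1.09 to 0.75). Zbp1 had -0.12 (-0.95 to 0.72) and 0.11 (-0.72 to 0.95), and Ripk3 had 0.06 (-0.47 to 0.58) and -0.07 (-0.60 to 0.45). The samples of both groups did not overlap for 5 of 10 members without stimulation (Pycard, Casp4, Gsdmd and Gsdme lower, Mlkl higher), where 34.1% of all tested genes were apart (16.3% higher, 17.8% lower), and for 4 with it (Aim2, Pycard and Ripk3 lower, Mlkl higher), where 36.3% were apart (19.3% higher, 17.0% lower).

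Whether the LPS/IFNγ response itself differed between naïve and efferocytic Mϕ was tested as the difference of both effects. No member and no gene at all passed (0.00% of 16309), and 311 genes had an unadjusted p under 0.05 in limma, Casp4 alone among the members, while edgeR and DESeq2 also called 0. Casp4 had the largest difference, a response that was 0.78 higher on the log2 scale in efferocytic Mϕ (95% interval 0.06 to 1.50), with an unadjusted limma p of 0.0360 and an adjusted p of 1.00. Taken by sample number, which no source gives as a shared preparation, this difference was 1.17 and 0.40. For the others the difference ran from -0.18 (Aim2, 95% interval -1.11 to 0.75) to 0.40 (Casp1, -0.49 to 1.29), and Mlkl had 0.38 (-0.28 to 1.04).

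**Figure D4:**
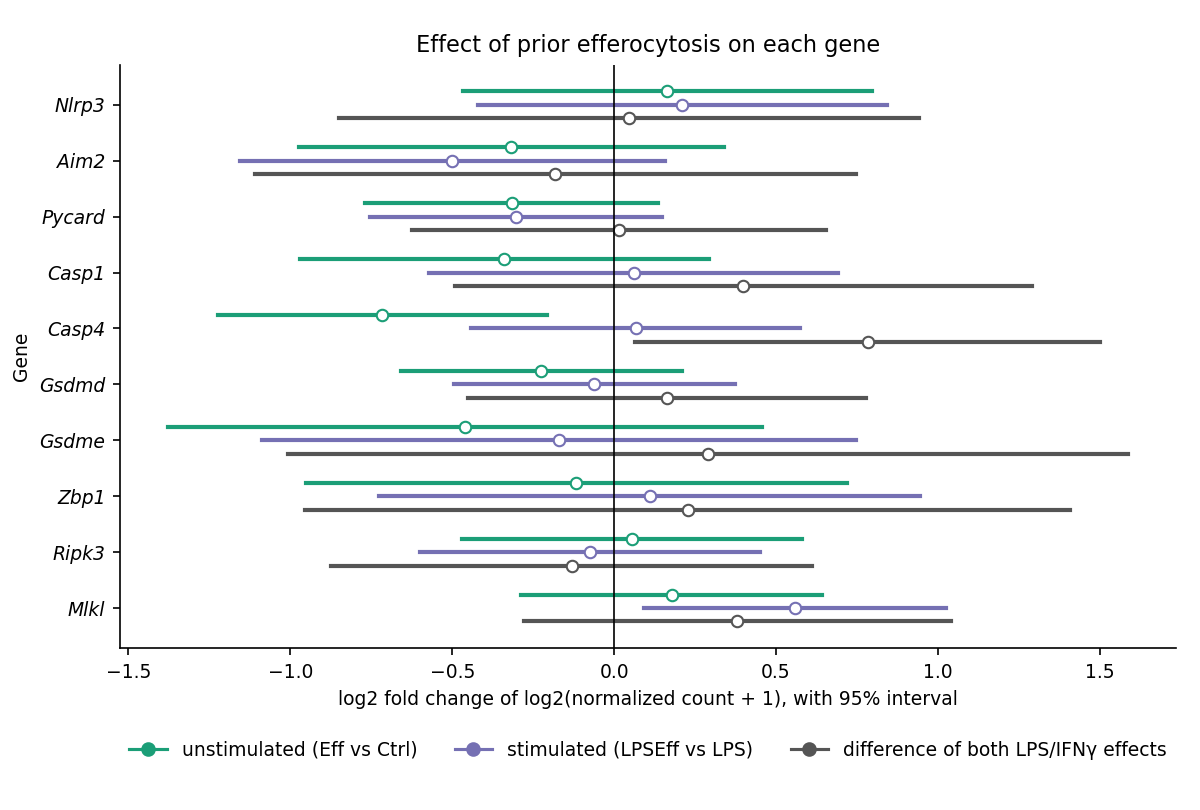
log2 difference by prior efferocytosis for each gene, without stimulation, with stimulation, and the difference of both LPS/IFNγ effects, with lines for 95% intervals (n = 2 samples per group). All points are open, since no gene passed at a limma adjusted p under 0.05, and the intervals of Casp4 (without stimulation, and the difference) and of Mlkl (with stimulation) lie off 0.

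Of the other genes of these pathways, limma and edgeR called 0 of 51 in either efferocytosis comparison, and DESeq2 called 0 without and 1 with stimulation. Of all 16309 tested genes, DESeq2 called 204 without and 368 with stimulation. With the replicate number as a block, limma called 4 and edgeR 5 with stimulation, beside 1137 and 1233 of all 16309 tested genes. In limma 2 genes had an unadjusted p under 0.05 without and 7 with stimulation, beside 1000 and 1679 of all 16309 tested genes. Among these 7, Bid had a log2 difference of 0.71 (95% interval 0.32 to 1.11, limma adjusted p = 0.149), Tnf -0.94 (-1.51 to -0.36, limma adjusted p = 0.197) and Panx1, a membrane channel gene, 0.90 (0.25 to 1.54, limma adjusted p = 0.274). Naip5 had -0.60 (-1.13 to -0.07, limma adjusted p = 0.415), with near-identical copies that could split its reads, and Gpx4, which protects membranes from lipid peroxidation, had 0.53 (0.08 to 0.98, limma adjusted p = 0.385). The genes named whatever their values lay closer to 0, other than Ninj1. Il1b had a log2 difference of -0.08 (95% interval -0.73 to 0.56) with stimulation and Ninj1 0.94 (0.07 to 1.80, limma adjusted p = 0.440). Il18 had -0.23 (-1.04 to 0.58), Casp8 -0.14 (-0.64 to 0.36), Ripk1 0.01 (-0.40 to 0.43) and Txnip -0.05 (-1.11 to 1.01).

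Divided by the length of the canonical transcript, the members can be compared with each other. Pycard led in unstimulated Mϕ, with 664 ± 102 normalized counts per kb in Ctrl and 532 ± 74 in Eff (SD, n = 2), ahead of Nlrp3 (253 ± 78 in Ctrl) and Gsdmd (239.6 ± 8.9). After LPS/IFNγ, Nlrp3 led with 1891 ± 548 per kb in LPS and 2143 ± 82 in LPSEff, followed by Zbp1 (1094 ± 120.0 and 1192 ± 262) and Casp4 (698 ± 167 and 723 ± 92), while Pycard stood at 265 ± 25 and 214 ± 17. Zbp1 thus went from place 9 in Ctrl to place 2 in LPS, and Casp4 from place 7 to place 3. Gsdme was the lowest in both stimulated groups (24.7 ± 12.5 and 20.9 ± 6.4 per kb). In Ctrl, Pycard lay apart, whereas the samples overlapped between Nlrp3 and Gsdmd, from Aim2 through Ripk3 (98.4 ± 5.8) to Casp1 (96.4 ± 6.2), and from Casp4 through Gsdme and Zbp1 to Mlkl (52.8 ± 1.5). In LPS, only Mlkl and Aim2 overlapped among neighbours in the order, and in LPSEff only Gsdmd with Casp1 and Casp1 with Mlkl. With the merged exons of all isoforms as the length, Pycard and Nlrp3 stayed on the first places in Ctrl and Nlrp3 and Zbp1 in LPS, whereas Casp4 came to place 5 in LPS. The canonical Pycard transcript has 4122 bases, and shorter isoforms are annotated, on which its level per kb would be higher.

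**Figure D5:**
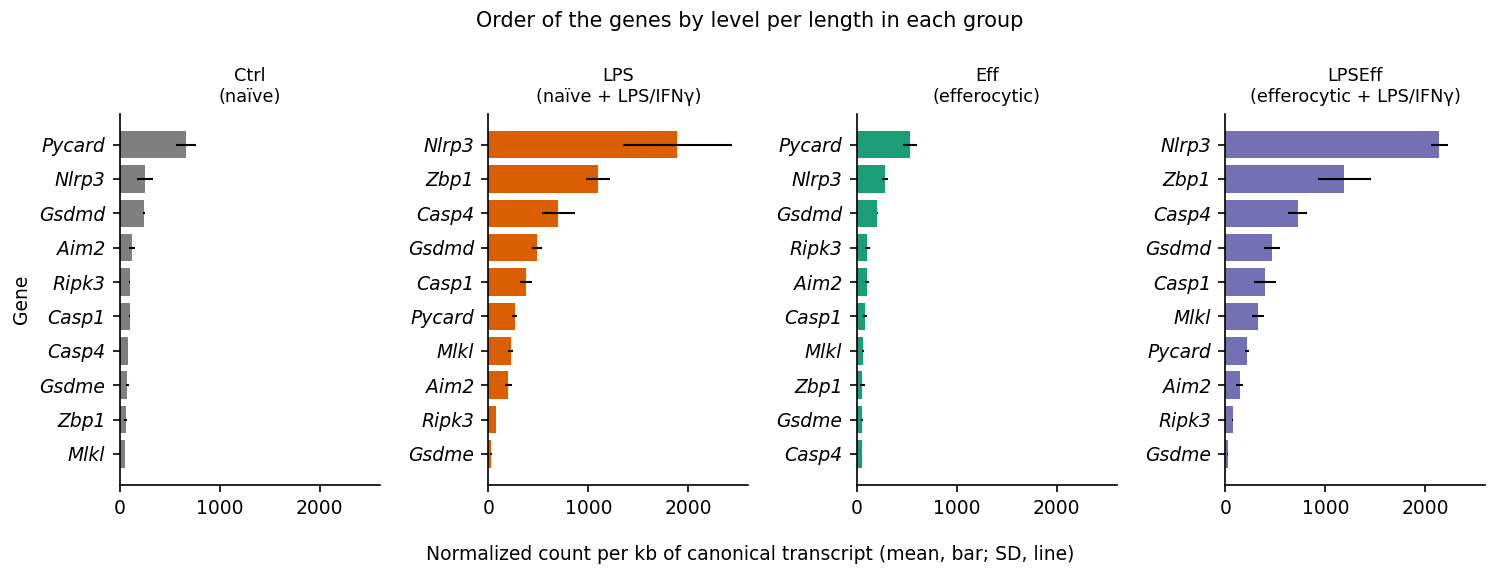
Normalized counts per kb of canonical transcript of the 10 genes, ordered within each group, with bars for means and lines for the SD of 2 samples. Pycard is at the top in Ctrl (664) and Eff (532), and Nlrp3 is at the top in LPS (1891) and LPSEff (2143).

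The pattern of each member over the 8 samples was also compared with those of 16299 other tested genes by Pearson's r of log2 values, as a description. The gene most like Nlrp3 was Ell2, an elongation factor gene (r = 0.997), for Casp1 it was Gsap (0.998), for Casp4 the gene model Gm18445 (0.999), for Gsdmd Tnfrsf8 (0.995) and for Zbp1 Acod1, the itaconate-producing enzyme (0.997). For Mlkl it was a gene without a symbol in the annotation used (0.996), for Pycard its antisense neighbour Gm45205 (0.999), for Gsdme Ap5s1 (0.985), for Ripk3 Deaf1 (0.993) and for Aim2 Gm25395 (0.995). Since the samples fall into stimulated and unstimulated ones, r mostly reads that split, and the number of genes with r above 0.95 ran from 24 for Ripk3 and 38 for Gsdme to 758 for Casp4.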

How the data were processed

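RNA of 8 BMDM samples (4 groups, n = 2, from the sample titles) was sequenced. The authors removed rRNA at the bench and again with Bowtie2 after cutadapt, aligned to mm39 with STAR and counted with HTSeq at default settings. Versions and annotation are not given in the sources used here. They deposited 1 signal value for each gene and sample, a normalized count (reads over a sample's size factor). All values (100%) were whole multiples of a sample's step within a tolerance of 0.01, which returned the reads. Names and positions came from GENCODE M39 (GRCm39).

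The main test was limma 3.58.1 (R 4.3.3, mean trend, two-sided) on log2(normalized count + 1). Genes needed a mean of at least 10. A single fit of 4 group means left 4 residual degrees of freedom, and calls needed a Benjamini-Hochberg adjusted p under 0.05. Exact permutation with 2 samples a group would give at best p = 0.333. Alternatives were other pseudocounts, filters and scalings, only the compared groups, a replicate block, edgeR 4.0.16 with TMM and DESeq2 1.42.0 on the recovered reads, and leaving out each sample. Added after the data had been seen were edgeR with the block and merged-exon lengths. Members and lists were chosen with earlier results of these data known. Besides the members, the text names per list and comparison up to 3 largest called rises and falls, and Il1b, Il18, Ninj1, Casp8, Ripk1 and Txnip, and some genes this rule would name are not reported here. Antisense genes, genes below the filter, and Bid, Panx1, Tnf, Naip5 and Gpx4 in the efferocytosis comparisons were named after their values were seen.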

Additional observations from a re-analysis of the deposited data

How the results depend on the processing

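With 2 samples per group, outliers could not be tested, and differences under about 0.5 on the log2 scale lie within most intervals. Over 19 alternatives, the number of members called stayed between 7 and 9 of 10 in LPS vs Ctrl and between 7 and 10 in LPSEff vs Eff. It stayed at 0 in both efferocytosis comparisons. In the difference it stayed at 0 over 18 alternatives, since the fit of only the compared groups does not cover it. Nlrp3, Pycard, Casp1, Casp4, Gsdmd, Zbp1 and Mlkl were called in both LPS/IFNγ comparisons under all 19.

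Of the other pathway genes, leaving out each sample gave 13 to 26 called in LPS vs Ctrl and 14 to 23 in LPSEff vs Eff, with fewer samples in the fit. In LPSEff vs LPS, 4 were called with the replicate block, 5 with edgeR TMM and the replicate block, and 1 with DESeq2. The main test called 0, and the cause was not tested. Over all 16309 tested genes, these alternatives called 1137, 1233 and 368, in that order. Gsdme in LPSEff vs Eff was not called with genes of a mean above 0 (limma adjusted p = 0.0548), with quantile normalization (0.0512) or with edgeR (0.0649), the range over all alternatives being 0.00468 to 0.202.

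Same-numbered samples deviated together (r of 0.404 to 0.595 across genes), but with 2 numbers and no source for a shared preparation the number was not taken as pairing. With the replicate block, limma called 9 and 10 members in the LPS/IFNγ comparisons, adding Aim2 in both (limma adjusted p = 0.00308 and 0.0174, over all alternatives 0.00224 to 0.432 and 0.0101 to 0.845) and Ripk3 in LPSEff vs Eff (0.0461, over all alternatives 0.0147 to 0.569), and over all genes 6717, 6033, 436 and 1137 in place of 3910, 3213, 41 and 126. In Eff vs Ctrl, DESeq2 called 204 genes, edgeR 14, the fit of only the compared groups 9, and filters at a mean above 0 and of at least 50 gave 79 and 20. In LPSEff vs LPS, DESeq2 called 368 genes and only the compared groups 66. In limma, the calls of Eff vs Ctrl did not hold without Eff replicate 2, nor those of LPSEff vs LPS without LPSEff replicate 1. DESeq2 and edgeR were not run with a sample left out. Equal totals gave 5578 in LPSEff vs Eff.

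Signs changed in small differences only. With equal totals, the difference of both effects was -0.0032 for Nlrp3 and -0.0351 for Pycard. Leaving out each sample, the values in Eff vs Ctrl ran from -0.15 to 0.48 for Nlrp3, from -0.66 to 0.42 for Zbp1 and from -0.20 to 0.31 for Ripk3. In LPSEff vs LPS they ran from -0.089 to 0.51 for Nlrp3, from -0.22 to 0.34 for Casp1, from -0.18 to 0.31 for Casp4, from -0.24 to 0.12 for Gsdmd, from -0.70 to 0.36 for Gsdme and from -0.12 to 0.34 for Zbp1. In the difference they ran from -0.27 to 0.36 for Nlrp3, from -0.45 to 0.087 for Aim2, from -0.14 to 0.17 for Pycard, from -0.019 to 0.35 for Gsdmd, from -0.24 to 0.82 for Gsdme, from -0.31 to 0.77 for Zbp1 and from -0.39 to 0.12 for Ripk3.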
